A study of Mus musculus with 27 samples.

Results

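Semaphorins, plexins and neuropilins are a family of guidance ligands and their receptors, and 31 of the 19937 genes measured in this series belong to it. They were chosen by symbol, with earlier results of these data known: 20 semaphorins (Sema3a to Sema3g, Sema4a to Sema4d, Sema4f, Sema4g, Sema5a, Sema5b, Sema6a to Sema6d and Sema7a), 9 plexins (Plxna1 to Plxna4, Plxnb1 to Plxnb3, Plxnc1 and Plxnd1) and 2 neuropilins (Nrp1 and Nrp2). Each gene was read by 1 Affymetrix probe set, and a level is the log2 value deposited for it, so that a difference of 1 is a factor of 2. Levels of different genes come from different probes and were not set against each other.

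Semaphorins are signalling proteins with a shared sema domain. Those of class 3 are secreted, those of classes 4, 5 and 6 span the membrane, and Sema7a is held in the membrane by a lipid anchor. Plexins are the receptors that carry the signal into the cell, where they act on small GTPases and on the cytoskeleton. Neuropilins bind most class 3 semaphorins together with A-type plexins, and they also bind vascular endothelial growth factors (VEGFs). In the nervous system these proteins steer axons, dendrites and migrating neural precursors, and in other tissues they act on vessels and immune cells.

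RNA of 27 mouse samples was measured on 1 array each. The cultured cells were 10 immortalized lines of neural stem cells (NSCs) and 2 cultures of normal NSCs labelled WT. Lines 3, 28, 31, 59, 95 and 116 were labelled p53 mutant, and lines 119, 120, 123 and 331 were labelled WT for p53, the tumor suppressor. The tissues were 12 tumors, 3 from each of lines 1 (labelled WT), 31 and 59 (both p53 mutant) and 123 (WT), and 3 samples of subcutaneous tissue (SubQ) labelled WT. The host strain given for all samples, cultures included, is CB17/ICR-Prkdcscid/IcrCrl, a mouse with severe combined immunodeficiency (SCID) that lacks functional B and T cells. Neither ages nor the way the lines were immortalized was given in the sources used here, and the p53 mutation was not specified. Each line in culture is a single array, line 1 was profiled here as tumors alone, and tumors hold host cells beside those of the line.

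The array medians were 7.02 to 7.08 in the lines, 7.03 to 7.07 in the normal NSCs, 5.47 to 5.57 in the tumors and 5.75 to 5.78 in SubQ tissue. Cell and tissue arrays shared no equal value in any of 180 pairs, against 28 to 83 in pairs of cell arrays and 41 to 626 in pairs of tissue arrays, so the deposited values looked normalized as 2 separate sets and were tested only within each. The SubQ arrays stood apart: the SD of their levels over all genes was 0.87 to 1.02, against 1.63 to 1.79 in the tumors, and the correlation of 2 SubQ arrays over genes was 0.66 to 0.72, against 0.94 to 0.98 for 2 tumors. The defining markers of the labelled cell type were high in the normal NSC cultures and lower in the lines. The 8 neural stem and glial markers had a mean log2 level of 10.05 and 10.07 in the 2 normal NSC arrays and of 6.54 to 7.47 in the lines, with 5 of 8 called lower, and the 7 fibroblast markers averaged 6.88 and 7.23 against 7.74 to 9.37, with 3 of 7 called higher. Endothelial markers were at like levels in both (6.18 to 6.38 in lines, 6.29 and 6.37 in NSCs). In the tissues, the 7 macrophage markers averaged 7.86 to 9.02 in tumors and 5.85 to 6.14 in SubQ samples, and the 4 adipocyte markers 4.64 to 6.03 against 6.77 to 7.003. The titles call each array a biological replicate, and each line in culture has its own number. The titles do not say whether replicates of normal NSCs, of SubQ tissue or of a tumor line came from separate cultures or animals. Array-to-array variation, on which every test here rests, may therefore be technical in part.

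In all, 4 class 3 semaphorin genes lie on mouse chromosome 5, with other genes between some of them. Of these, 3 (Sema3d, Sema3c and Sema3e) were among the 4 family members that differed most from line to line in culture. The promoters of all 4 were looked at. Their sequences are shown here, as the 250 bases before the transcription start in RefSeq annotation of assembly GRCm38.p6, all on the + strand, at chr5:12382916-12383165 for Sema3d, chr5:13396534-13396783 for Sema3a, chr5:14025026-14025275 for Sema3e and chr5:17574566-17574815 for Sema3c. Capitals mark the CG dinucleotides, the sites at which mammalian DNA is mainly methylated.
Sema3d: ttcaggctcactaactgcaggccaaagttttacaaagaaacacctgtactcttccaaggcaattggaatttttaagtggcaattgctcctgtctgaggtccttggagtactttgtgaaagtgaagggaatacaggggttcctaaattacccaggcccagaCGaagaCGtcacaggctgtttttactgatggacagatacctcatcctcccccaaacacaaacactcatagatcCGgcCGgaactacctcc
Sema3a: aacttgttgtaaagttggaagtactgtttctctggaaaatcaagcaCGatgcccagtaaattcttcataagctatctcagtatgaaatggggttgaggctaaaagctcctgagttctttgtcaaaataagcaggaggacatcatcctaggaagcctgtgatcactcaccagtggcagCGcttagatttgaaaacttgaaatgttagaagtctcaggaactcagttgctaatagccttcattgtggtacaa
Sema3e: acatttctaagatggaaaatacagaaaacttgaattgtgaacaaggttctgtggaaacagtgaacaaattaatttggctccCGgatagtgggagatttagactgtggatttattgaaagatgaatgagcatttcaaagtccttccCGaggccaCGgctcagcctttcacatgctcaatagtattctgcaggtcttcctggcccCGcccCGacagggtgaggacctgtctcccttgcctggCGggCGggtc
Sema3c: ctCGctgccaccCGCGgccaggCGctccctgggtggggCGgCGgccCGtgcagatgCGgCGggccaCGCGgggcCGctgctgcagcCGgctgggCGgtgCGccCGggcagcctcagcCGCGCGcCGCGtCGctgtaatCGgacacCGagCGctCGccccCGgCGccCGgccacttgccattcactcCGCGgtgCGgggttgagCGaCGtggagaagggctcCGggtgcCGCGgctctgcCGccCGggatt
The 4 windows differ widely in CG content. Sema3a has 2 CG sites and 40.8% G or C, Sema3d has 4 and 46.8%, Sema3e has 7 and 48.0%, and Sema3c has 39 and 78.4%. Over all 32851 windows of the RefSeq table the median is 6 CG sites, and 98.4% of them hold fewer than Sema3c. The letters GGGCGG, the core of a GC box, were searched on both strands and occur 3 times for Sema3c, 2 times for Sema3e and not for Sema3d or Sema3a. That motif is found in 32.7% of all windows and in 27 of the 37 windows of the 26 members that the table lists. TATAAA, searched likewise, is in none of the 37 and in 12.4% of all windows. A match of letters describes the sequence and is no evidence of binding. No protein-coding gene is annotated between Sema3d and Sema3a, 3 are between Sema3a and Sema3e, and 15 are between Sema3e and Sema3c. Plxna1, Plxna4, Sema3b, Sema3f and Sema6a had no window in the table.

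A first comparison was that of the 10 immortalized cultures with those of normal NSCs. The neuropilins were higher in the lines and the class 6 semaphorins Sema6a and Sema6d were far lower, while 3 of the 7 class 3 ligands, Sema3c, Sema3d and Sema3e, had an SD over 1 among the lines. By limma with Benjamini-Hochberg adjustment over all genes, 9 of the 31 members were called at an adjusted p under 0.05, which is 29% where 15% of all genes were called. Of these, 4 were higher in the lines (12.9%, against 6.79% of all genes) and 5 were lower (16.1%, against 8.22%). The median absolute log2 difference was 0.55 over the members and 0.16 over all genes. In arrays of whole cultures, fewer cells that express a gene and less RNA per cell cannot be told apart.

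**Figure D1:**
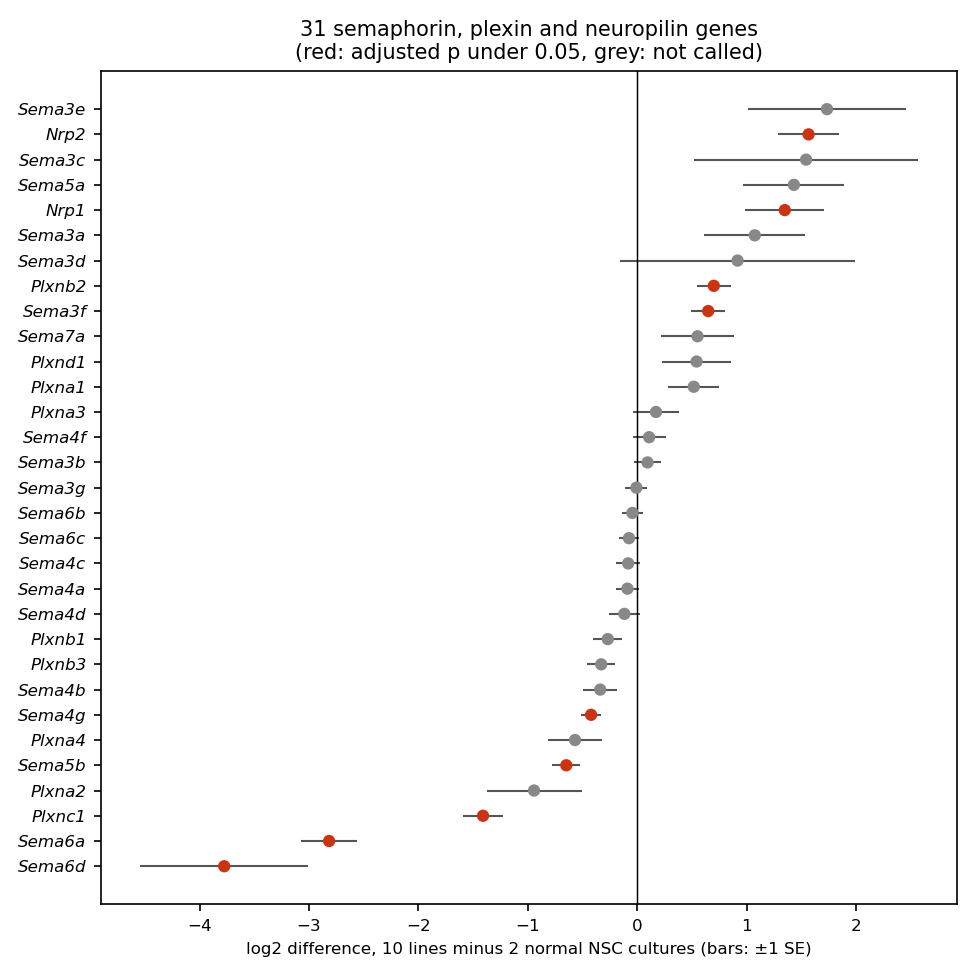
Log2 difference of the 10 lines minus the 2 normal NSC cultures for each of the 31 genes, on the x axis, with bars of 1 standard error on each side. The 9 genes called at an adjusted p under 0.05 are in red, with Sema6d and Sema6a at the bottom and Nrp2 as the highest of the called genes at the top.

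Among the ligands, the largest decreases were in class 6, membrane semaphorins that signal through A-type plexins. Sema6d was at 10.97 and 10.99 in the 2 normal NSC cultures and at 6.06 (lowest), 6.75 (median) and 9.68 (highest) in the 10 lines. Every line was thus below both cultures, but the lines were far apart, with line 95 at 9.68, line 116 at 8.31, line 119 at 8.08 and line 31 at 7.57, and the other lines between 6.06 and 6.90. The difference was -3.77 ± 0.77 (SE; adjusted p = 0.0043). Sema6a was at 9.37 and 9.26 in the normal NSCs and at 6.17, 6.39 and 7.49 (lowest, median, highest) in the lines. Line 119 was the highest line and still lay far below the normal cultures, and the difference was -2.82 ± 0.26 (SE; adjusted p = 5.3e-06). The other class 6 genes, Sema6b and Sema6c, differed by -0.04 and -0.08, and neither was called.

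Sema5b, a class 5 semaphorin with thrombospondin repeats, was at 7.72 and 7.66 in the normal NSCs and at 6.77, 7.07 and 7.36 (lowest, median, highest) in the lines, a difference of -0.65 ± 0.13 (SE; adjusted p = 0.0035). Its relative Sema5a was at 7.57 and 7.43 in the normal NSCs and at 7.78, 8.92 and 9.74 in the lines. No line overlapped the normal cultures, but the difference of 1.43 ± 0.46 (SE) was not called (adjusted p = 0.055). In class 4, only Sema4g was called, at 7.53 and 7.55 in the normal NSCs against 6.88, 7.14 and 7.24 in the lines (-0.42 ± 0.09, SE; adjusted p = 0.0073). The other 5 class 4 genes differed by -0.34 to 0.11. Sema7a, a ligand of Plxnc1 and of integrins, differed by 0.55 ± 0.34 (SE) and was not called.

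Of the 7 secreted class 3 genes, Sema3f alone was called. This ligand, which acts mainly through Nrp2, was at 7.35 and 7.68 in the normal NSCs and at 7.93, 8.08 and 8.51 (lowest, median, highest) in the lines. The groups did not overlap, and the difference was 0.65 ± 0.15 (SE; adjusted p = 0.012). Sema3a, the ligand that acts mainly through Nrp1, was at 10.18 and 9.76 in the normal NSCs and at 10.25, 11.02 and 12.40 in the lines, and Sema3e at 6.31 and 6.26 against 6.59, 7.93 and 9.82. Both were higher in every line than in either normal culture, but the spread among lines left them uncalled (1.07 ± 0.46, adjusted p = 0.15, and 1.73 ± 0.72, adjusted p = 0.14; both SE). Sema3b and Sema3g differed by 0.09 and -0.01.

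Among the receptors, both neuropilins were higher in the lines. Nrp2 was at 7.30 and 7.26 in the normal NSCs and at 8.15, 8.85 and 9.38 (lowest, median, highest) in the lines, a difference of 1.57 ± 0.28 (SE; adjusted p = 0.0016). Nrp1 was at 8.26 and 8.10 in the normal NSCs and at 8.48, 9.63 and 10.20 in the lines, a difference of 1.35 ± 0.36 (SE; adjusted p = 0.023). All 10 lines exceeded both normal cultures for both genes, with line 28 the lowest for Nrp1 and line 331 the lowest for Nrp2. Plxnb2, a B-type plexin that is a receptor for class 4 semaphorins, was at 9.40 and 9.22 in the normal NSCs and at 9.56, 10.03 and 10.38 in the lines (0.70 ± 0.16, SE; adjusted p = 0.0081).

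Plxnc1, the receptor of Sema7a, was lower. It was at 7.46 and 6.96 in the normal NSCs and at 5.19, 5.83 and 6.04 (lowest, median, highest) in the lines, a difference of -1.41 ± 0.18 (SE; adjusted p = 0.00013). The mean of the lines, 5.80, was below the 25th percentile of gene means in the lines (6.17), so little signal was left there. The means of Plxnc1 and of Sema6a (6.49) in the lines were also below 6.72, the 95th percentile there of odorant and vomeronasal receptor genes. The other 7 plexins were not called and ranged from -0.94 (Plxna2) to 0.54 (Plxnd1). Plxnd1, the receptor of Sema3e, was higher in every line (7.69 to 9.43) than in the normal NSCs (7.64 and 7.61), with line 116 far above the rest at 9.43.

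**Figure D2:**
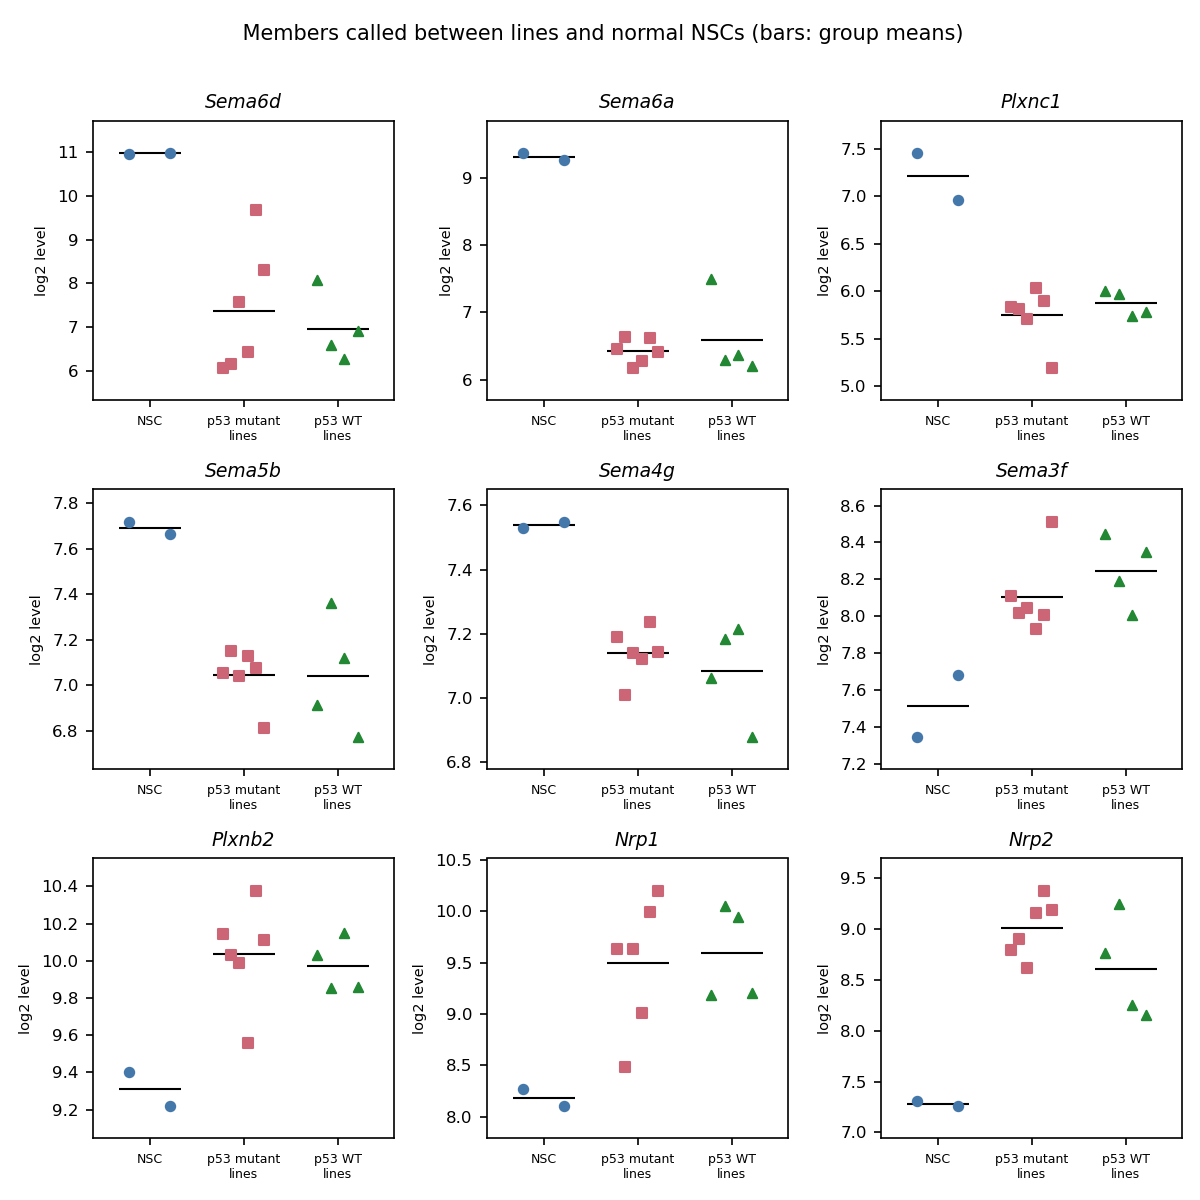
Log2 level, on the y axis, of the 9 genes called between lines and normal NSCs, with 1 point per array for 2 NSC cultures, 6 p53 mutant lines and 4 p53 WT lines, and a bar at each group mean. For each gene no line overlaps the normal NSCs, and the lines of both p53 labels lie on the same side.

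Altogether 13 members had no overlap between lines and normal NSCs, 41.9% against 21.3% of all genes. They are the 9 called genes with Plxnd1, Sema3a, Sema3e and Sema5a. With only 2 normal cultures the calls leaned on each: 3 members were called without the first NSC array (Plxnc1, Sema6a and Nrp2) and 5 without the second (these with Sema3f and Sema5b). Each of these refits kept a single normal culture, and the share of all genes called in them is not given here. The counts thus cannot show whether members lost more calls than other genes. The neural stem and glial markers, lower in the lines, and the fibroblast markers, higher, moved with the differences between lines and normal NSCs. The 7 neuronal markers averaged 7.98 and 8.30 in the normal NSCs and 6.33 to 8.03 in the lines, with 4 of 7 called lower. The part of these markers was not tested.

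The same normal cultures served as the control when lines of 1 p53 label were set against them, so the counts share those arrays. The 6 p53 mutant lines alone gave 10 called members, where 15.5% of all genes were called, with Plxna2 and Sema5a gained and Nrp1 lost. The 4 p53 WT lines alone gave 9, where 12% of all genes were called, with Sema3d and Sema3e gained and Sema4g and Sema5b lost. Sema3d was 2.69 higher than the normal NSCs in the WT lines (adjusted p = 0.023) and -0.27 in the mutant lines, and Sema3e was 2.27 higher in the WT lines (adjusted p = 0.016) and differed by 1.38 in the mutant lines (adjusted p = 0.29).

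The lines with mutant p53 were set directly against those with WT p53. Across all genes only 4 were called, 0.0201% of those tested, 0.015% being lower in the mutant lines, and 1 of them was a member (3.23%): Sema3d, a class 3 semaphorin known for guiding endothelial and neural crest-derived cells. It was at 5.53 in line 3, 5.05 in line 28, 5.61 in line 31, 5.67 in line 59, 5.95 in line 95 and 5.70 in line 116. The WT lines were at 8.36 in line 119, 7.77 in line 120, 8.05 in line 123 and 10.01 in line 331. All mutant lines were near the normal NSCs (5.99 and 5.72), and all WT lines were far above them, with line 331 the highest. It was the 1 member without overlap, against 1.69% of all genes. The means were 5.59 ± 0.30 (SD, n = 6) and 8.55 ± 1.01 (SD, n = 4), a difference of -2.96 ± 0.37 (SE; adjusted p = 0.037). The means of the mutant lines and of the normal NSCs were below the 25th percentile of gene means in their groups, so there a level near the floor was read.

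No other member was called between the p53 labels, and 4 had an unadjusted p under 0.05 (12.9%, against 8.53% of all genes). The next were Plxna2 (-0.82 ± 0.30, SE; adjusted p = 0.49) and Plxna1 (-0.41 ± 0.17, SE; adjusted p = 0.54). The call of Sema3d sat close to the threshold. It was lost when any 1 of lines 3, 28, 31, 59, 95, 116 or 119 was left out (adjusted p up to 0.15), with trend and robust variance settings and with arrays centred on their medians, while the difference stayed between -3.22 and -2.47 in every setting run. The 7 fibroblast markers averaged 8.16 to 9.37 in the WT lines and 7.74 to 8.31 in the mutant lines, with none of 7 called, and their part in the difference was not tested.

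Some class 3 genes differed widely among lines of the same p53 label. The SD over the 10 lines exceeded 1 for 4 of the 31 members, Sema3d (1.65), Sema3c (1.57), Sema6d (1.18) and Sema3e (1.11), which is 12.9%, against 1.54% of all genes. The median SD was 0.24 over the members and 0.18 over all genes, and the other class 3 genes had SDs of 0.70 (Sema3a), 0.20 (Sema3f), 0.15 (Sema3b) and 0.10 (Sema3g). Sema3c, a ligand of neuropilins and of Plxnd1, was at 11.57 in line 119, 11.03 in line 331, 10.14 in line 31, 10.08 in line 116, 9.45 in line 120 and 8.60 in line 123. It was at 8.38 in line 3, 8.34 in line 28, 7.10 in line 95 and 6.86 in line 59, and at 7.60 and 7.63 in the normal NSCs. Thus 8 lines lay above the normal cultures and lines 95 and 59 below them.

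Sema3e was at 9.82 in line 116, 9.14 in line 331, 8.84 in line 123, 8.80 in line 120, 7.96 in line 31, 7.91 in line 95 and 7.42 in line 119. It was at 6.93 in line 28, 6.74 in line 3 and 6.59 in line 59. The 4 chromosome 5 genes did not share 1 order of lines. Line 116 had the highest Sema3a (12.40) and Sema3e of all lines and low Sema3d (5.70), while line 119 had the highest Sema3c and a Sema3e level of 7.42. Line 59 was the lowest of all lines for both Sema3c and Sema3e.

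**Figure D3:**
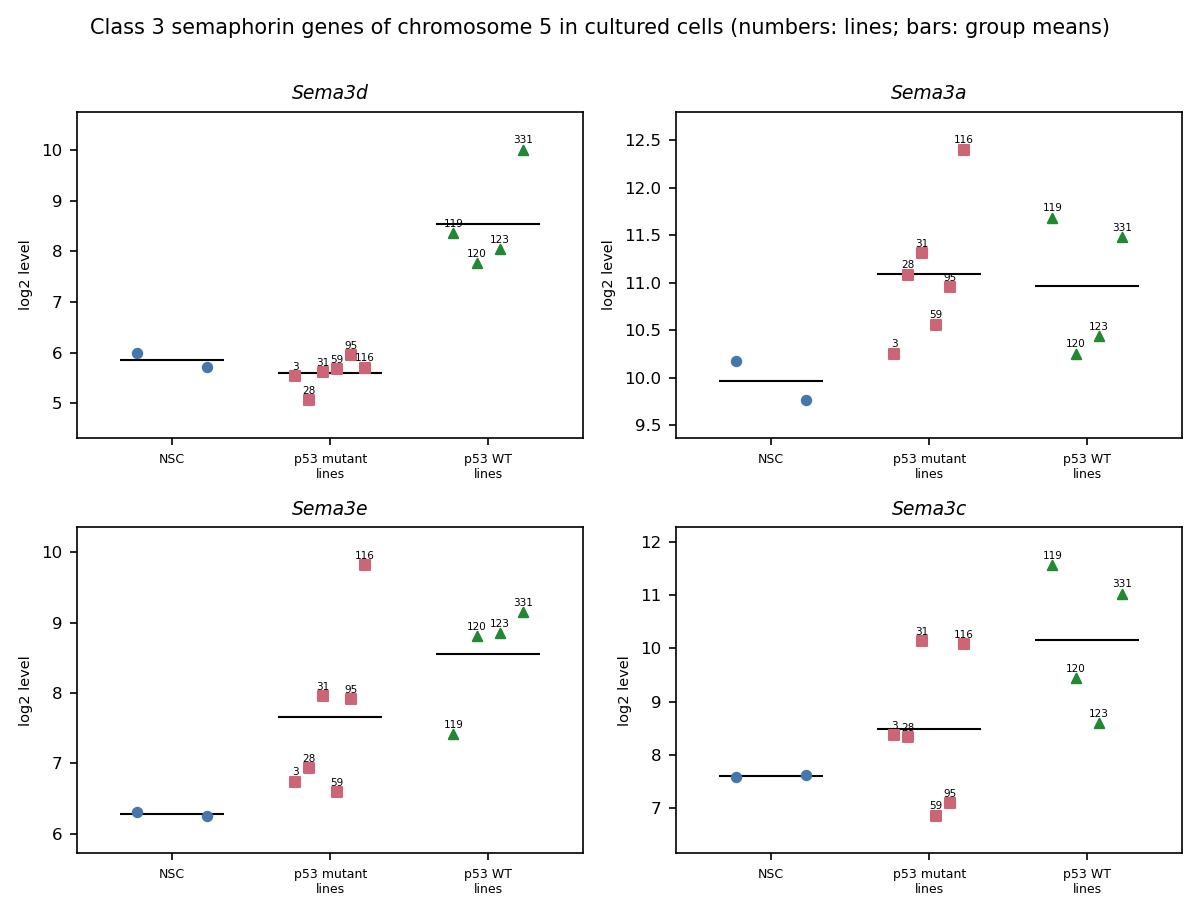
Log2 level, on the y axis, of Sema3d, Sema3a, Sema3e and Sema3c in 2 normal NSC cultures, 6 p53 mutant lines and 4 p53 WT lines, with 1 point per array, the line number beside it and a bar at each group mean. Sema3d alone separates the p53 labels without overlap (5.05 to 5.95 against 7.77 to 10.01), while the other genes spread within both.

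The 12 tumors came from 4 lines, which asks how far the line of origin goes with the expression of the family. A moderated F test called 5 of 31 members, 16.1% against 5.07% of all genes: Sema3c, Plxna4, Plxna3, Plxna2 and Nrp1. Thus 3 of the 4 A-type plexins, the signalling partners of neuropilins, differed between lines. The median range of the 4 line means was 0.52 over the members and 0.33 over all genes.

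Sema3c differed most clearly. Its levels were 8.86, 8.64 and 8.22 in line 31 tumors, 6.91, 7.30 and 7.73 in line 123 tumors, 6.80, 7.38 and 7.20 in line 1 tumors and 5.48, 6.13 and 6.44 in line 59 tumors. Line 31 was above and line 59 below all other tumors, and SubQ tissue was at 6.37, 5.93 and 6.98. The line means spanned 2.56 (F test, adjusted p = 0.0016). Against the mean of the other 3 lines, line 31 was 1.75 ± 0.22 higher (SE; adjusted p = 0.0042) and line 59 was lower, at -1.65 ± 0.22 (SE; adjusted p = 0.0032).

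Plxna4, a receptor for class 3 and class 6 semaphorins, was high in line 1 tumors alone. Its levels there were 6.80, 8.92 and 7.63, against 4.93 to 5.45 in line 31, 5.32 to 5.67 in line 59, 5.60 to 5.72 in line 123 and 5.36 to 5.70 in SubQ tissue. The 3 line 1 tumors were far apart but did not overlap any other tissue array, and they were 2.31 ± 0.31 higher than the other lines (SE; adjusted p = 0.0015).

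Nrp1 was also higher in line 1 tumors, at 8.53, 8.53 and 8.78, than in line 31 (8.01, 7.73 and 7.95), line 59 (8.12, 7.40 and 7.995) or line 123 tumors (7.83, 7.91 and 7.89). No other tumor reached the line 1 values, and the difference was 0.75 ± 0.14 (SE; adjusted p = 0.012). Sema6d, called in the contrast of line 1 but not by the F test (adjusted p = 0.066), was at 7.72, 8.39 and 7.66 in line 1, 6.17, 6.17 and 7.24 in line 31, 7.29, 6.96 and 6.79 in line 59 and 7.15, 5.99 and 6.60 in line 123. Line 1 was again above all other tumors, by 1.22 ± 0.27 (SE; adjusted p = 0.026).

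These 3 genes are all of the members called for line 1 (9.68%, against 4.62% of all genes), and all were higher (against 2.33% of all genes called higher). They are also the 3 members whose line 1 values did not overlap other tumors, against 5.11% of all genes. Endothelial markers moved with them: the 8 genes averaged 7.09 to 7.22 in line 1 tumors and 5.99 to 6.55 in the other tumors, with 2 of 8, Tek and Pecam1, called higher in line 1 and none below the 25th percentile of gene means in the tumors. The 7 macrophage markers averaged 7.86 to 8.17 in line 1 and 8.02 to 9.02 in the others, with 2 of 7, Adgre1 and Aif1, called lower. The part of either cell type in the differences was not tested. With line 1 replicate 3 left out 1 member was called (Plxna4), with line 1 replicate 2 left out 2 were (Plxna4 and Nrp1), and with line 31 replicate 3 left out 5 were, Sema3a and Sema7a being added.

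Plxna2 and Plxna3, both A-type plexins, were low in line 31 tumors. Plxna2 was at 5.66, 5.87 and 5.85 there, at 6.37, 6.84 and 6.43 in line 1, 6.73, 6.39 and 6.60 in line 59 and 6.37, 6.26 and 6.41 in line 123, so that line 31 was below all other tumors (-0.69 ± 0.12, SE; adjusted p = 0.018). Plxna3 was at 5.37, 5.63 and 5.51 in line 31, 5.63, 5.75 and 5.81 in line 1, 6.09, 5.95 and 6.13 in line 59 and 6.07, 6.20 and 6.47 in line 123 (-0.51 ± 0.11 for line 31, SE; adjusted p = 0.046). With Sema3c, these were the 3 members called for line 31 (9.68%, against 1.39% of all genes). Of these 1 was higher (3.23%, against 0.627%) and 2 lower (6.45%, against 0.762%). Sema3c was the 1 member called for line 59 (3.23%, against 1.17% called and 0.416% called lower). Some marker genes moved with the line here too. The 8 neural stem and glial markers averaged 5.40 to 5.86 in line 59 tumors and 4.57 to 5.09 in the others. Of these, 2 of 8, Sox2 and Nes, were called higher, and 1 of 8 endothelial genes, Tek, was lower. In line 31 tumors 1 of 7 macrophage genes, Aif1, was called higher. There 1 of 8 endothelial genes, Tek, and 1 of 7 neuronal genes, Stmn2, were called lower. Tek was called lower for line 123 as well, and each of these contrasts includes line 1, where Tek was called higher. Stmn2 was called lower for line 1 too. The part of these markers was not tested. Line 31 overlapped line 1 for Plxna3, and that call was lost when any 1 of 10 tumors was left out, all but replicate 1 of line 1 and replicate 1 of line 123. The count for line 31 was 1 (Sema3c) with its replicate 1 left out and 5 with line 1 replicate 1 left out.

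No member was called for line 123 by limma (0.848% of all genes were), and 4 had an unadjusted p under 0.05 (12.9%, against 12.2% of all genes). The nearest was Plxna3, at 0.48 ± 0.11 above the other lines (SE; adjusted p = 0.069). The F test count was 2 with line 31 replicate 1 left out, 3 with line 123 replicate 2 or 3 left out and 7 with line 31 replicate 3 left out, and the call of Nrp1 in that test was lost when any 1 of 9 tumors was left out.

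**Figure D4:**
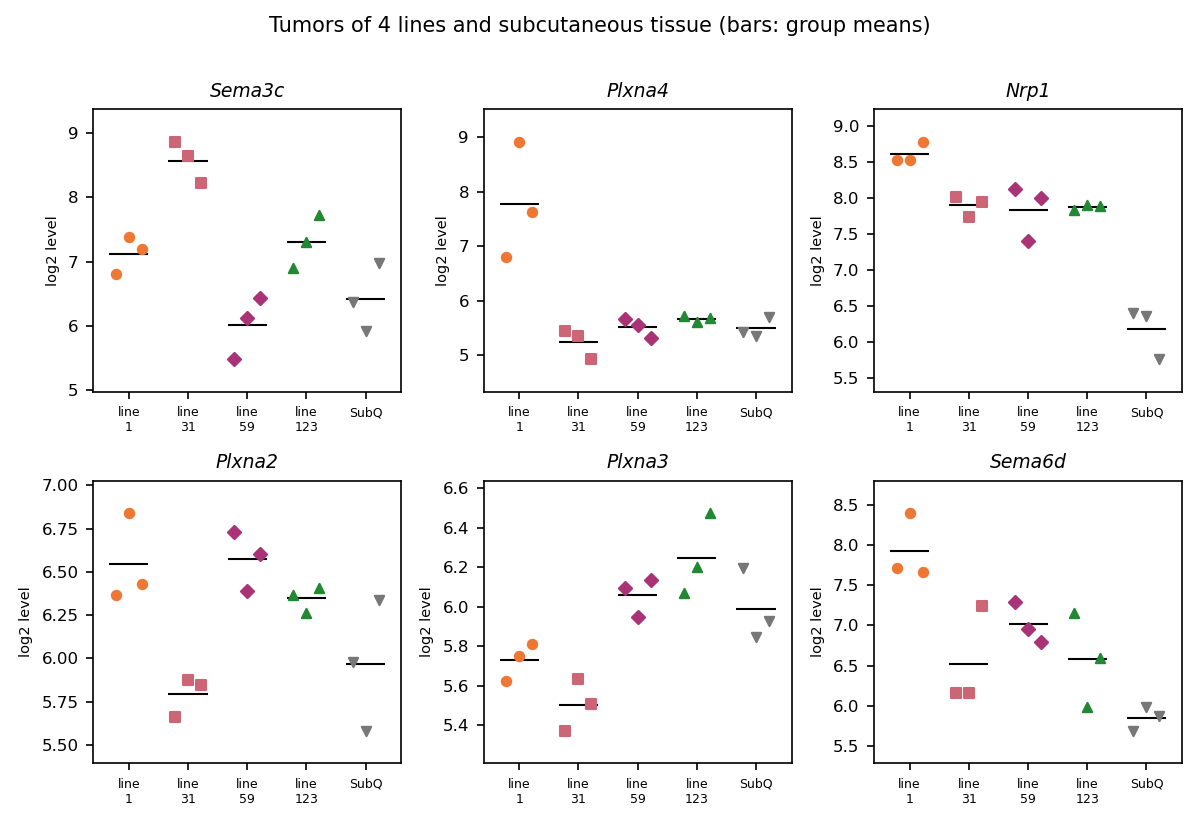
Log2 level, on the y axis, of Sema3c, Plxna4, Nrp1, Plxna2, Plxna3 and Sema6d in 3 tumors of each of 4 lines and in 3 SubQ samples, with 1 point per array and a bar at each group mean. Line 1 is highest for Plxna4, Nrp1 and Sema6d, and Sema3c runs from line 31 down to line 59.

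The next members by the F test were not called. Sema5a, a ligand of Plxnb3 and of A-type plexins, was at 7.49, 8.81 and 8.97 in line 59, 7.13, 8.60 and 7.47 in line 1, 7.62, 6.54 and 6.57 in line 123 and 5.92, 6.23 and 6.84 in line 31 (adjusted p = 0.056). Plxna1 was at 6.67, 7.44 and 7.09 in line 1, 6.02, 6.99 and 6.32 in line 31, 7.29, 7.57 and 7.32 in line 59 and 7.32, 7.18 and 7.50 in line 123 (adjusted p = 0.087). Line 31 thus had the lowest mean for both, with values that overlapped other lines. Sema4b ranged from 5.47 to 5.82 in line 31 and from 5.90 to 6.36 in the other tumors (adjusted p = 0.12), and Sema7a was at 7.31, 8.81 and 8.37 in line 1 and at 6.60 to 7.63 in the others (adjusted p = 0.14).

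The tumors were also set against SubQ tissue. Here 22 of 31 members were called, 71%, but so were 76.5% of all genes, and the SubQ arrays had the narrow range of levels given above, so the count itself is near the background. Of the members, 8 were higher in tumors (25.8%, against 30.7% of all genes) and 14 were lower (45.2%, against 45.8%). As a view of background, the 95th percentile of 1190 genes of odorant and vomeronasal receptors was 6.23 in SubQ tissue, and 21 of the 31 members had SubQ means below it, against 4 members below the like value of 5.25 in the tumors. The median difference was -0.29 over the members and -0.28 over all genes, and 9 members did not overlap between the groups, 29% against 52.5% of all genes.

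The members that rose include both neuropilins, 3 plexins and 3 ligands. All but Plxna1 had SubQ means below the background level of 6.23, so the sizes of these differences are measured from near the floor. Sema3a was at 5.74, 5.84 and 5.52 in SubQ tissue and at 8.12, 8.96 and 10.15 (lowest, median, highest) in the tumors, a difference of 3.38 ± 0.35 (SE; adjusted p = 2.3e-07). Plxnb2 was at 5.08, 4.84 and 5.41 in SubQ tissue, where its mean was also below the 25th percentile of gene means, and at 6.67, 7.58 and 8.32 in the tumors (2.45 ± 0.31, SE; adjusted p = 1.7e-06). For both Sema3a and Plxnb2 all 12 tumors were above all SubQ samples by more than 1 log2 unit.

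Nrp1 was at 6.40, 6.36 and 5.76 in SubQ tissue and at 7.40, 7.97 and 8.78 in the tumors (1.89 ± 0.23, SE; adjusted p = 1.4e-06). Nrp2 was at 5.86, 5.996 and 5.70 against 6.54, 6.78 and 7.09 (0.97 ± 0.14, SE; adjusted p = 6.1e-06). Every tumor was thus above every SubQ sample for both neuropilins, which endothelial cells and macrophages also express. Plxnd1, an endothelial receptor, was at 5.95, 5.03 and 5.37 against 6.02, 6.69 and 7.49 (1.27 ± 0.28, SE; adjusted p = 0.00051), and the lowest tumor was hardly above the highest SubQ sample.

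Sema6d was at 5.69, 5.99 and 5.87 in SubQ tissue and at 5.99, 7.05 and 8.39 in the tumors (1.16 ± 0.38, SE; adjusted p = 0.011), the lowest tumor being level with the highest SubQ sample. Sema5a, at 5.94, 6.18 and 5.30 against 5.92, 7.30 and 8.97, overlapped between the groups (1.54 ± 0.54, SE; adjusted p = 0.015), as did Plxna1 (0.69 ± 0.27, SE; adjusted p = 0.025). Of the genes that fell, the largest difference was that of Sema4d. This ligand of Plxnb1 and of the lymphocyte receptor Cd72 is itself carried by T cells. It was at 6.93, 6.98 and 7.53 in SubQ tissue and at 5.58, 5.75 and 5.97 in the tumors (-1.38 ± 0.13, SE; adjusted p = 9.7e-08), with no overlap. The 5 lymphocyte markers moved with it, all called lower (array means 4.17 to 4.74 in tumors, 5.36 to 5.69 in SubQ tissue). Of the 5, 3 had means below the 25th percentile of gene means in both groups, and the host strain lacks functional B and T cells. Their part was not tested.

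Sema4d was the 1 member with a second probe set listed for it alone. That probe set was at 6.53, 6.51 and 5.94 in SubQ tissue and at 5.44 to 6.88 in the tumors, with overlap. The other 13 members called lower differed by -0.90 (Sema5b) to -0.29 (Sema3f). Of these, Plxnb1, Plxnb3, Sema3b, Sema3g, Sema4c, Sema4f, Sema4g and Sema6c had SubQ means below the background level of 6.23. The background itself was lower in tumors, with a 95th percentile of 5.25 and a median of 3.66, against 6.23 and 4.92 in SubQ tissue. Differences of such low genes may thus reflect a shift in background, which was not tested. With Sema4d, the 13 genes include 5 of the 6 class 4 genes. Of these, Sema4c, Sema4f and Sema4g lost their calls with SubQ replicate 1 left out, in which fit Sema4a was called. Macrophage markers (7 of 7 called higher, averages given above) and endothelial markers (5.99 to 7.22 in tumors, 5.69 to 5.83 in SubQ tissue, 3 of 8 called higher and 1 lower) moved with these differences. Fibroblast markers (8.31 to 8.86 in tumors, 7.07 to 7.64 in SubQ tissue, 6 of 7 called higher) and skeletal muscle markers (5.77 to 8.38 in tumors, 7.70 to 8.83 in SubQ tissue, 5 of 5 called lower) did so too. The part of none of these was tested. The count of called members was 17, 19 and 15 with SubQ replicate 1, 2 or 3 left out, Plxna1 losing its call without replicate 2 or 3 and Sema5a without replicate 3. With the 3 tumors of each line averaged the count was 15. Plxnb1, Plxnb3, Sema3b, Sema3f, Sema3g, Sema4c and Sema6b then lost their calls.

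Lines 31, 59 and 123 were measured both in culture and as tumors. Since cell and tissue arrays looked normalized apart and each line has 1 culture array, the values are only described, once these 12 arrays had been quantile-normalized together, and carry no test. In 5 members all 9 tumors were higher than their own line in culture: Plxnc1, Sema6a, Sema6b, Sema6d and Sema7a (16.1%, against 15.7% of all genes). In 4 members all 9 were lower: Plxna3, Plxnb1, Sema3e and Sema3g (12.9%, against 23.9%). Neither share is above that of all genes by more than 1 percentage point. The other 22 had tumors on both sides. On the deposited values 26 members had all 9 tumors lower (83.9%, against 92.8% of all genes) and 1, Plxnc1, had all 9 higher (3.23%, against 1.2%). Plxnc1 was thus higher on both scales, while Sema6a, Sema6b, Sema6d and Sema7a were not higher in all 9 tumors on the deposited values. Since nearly all genes were lower on that scale, it cannot check the directions of members other than Plxnc1.

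After joint normalization the receptor Plxnc1 and its ligand Sema7a were both higher in tumors than in culture. Plxnc1 was at 4.71 in culture and 6.71, 6.48 and 7.004 in tumors of line 31, 4.91 against 6.64, 6.82 and 6.45 for line 59, and 4.62 against 6.54, 6.82 and 6.41 for line 123. The mean differences of 2.02, 1.73 and 1.96 were alike in the 3 lines. For Sema7a they were 0.38, 1.63 and 1.36 (lines 31, 59 and 123), but -1.29, 0.12 and -0.26 on the deposited values. Plxnc1 was near background in the cultured lines, as given above. In the 12 tumors it was level with SubQ tissue (deposited means 6.20 and 6.24, limma adjusted p = 0.89). The SubQ mean lay at the background level there (6.23), while the tumor mean lay above that of tumors (5.25). The part of host cells in the difference of Plxnc1 was not tested. Sema6d, low in the cultured lines, was 0.51, 2.09 and 1.83 higher in the tumors, and Sema6a 0.79, 0.96 and 0.81.

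Sema3e was lower in all 9 tumors. It was at 6.77 in culture and 5.32, 5.47 and 5.13 in tumors of line 31, at 5.45 against 4.97, 5.17 and 5.37 for line 59, and at 7.54 against 5.35, 5.62 and 5.84 for line 123. The lines with more Sema3e in culture showed the larger difference, and the tumors of all 3 lay close together. On the deposited values the tumor mean of Sema3e, 5.13, was below 5.25, the background level given above for tumors. With tumors so near the floor, the size of each difference mostly repeats the level in culture. Sema3d was 1.78 and 1.51 higher in tumors of lines 31 and 59, which were low in culture, and differed by -0.08 for line 123. Tumor levels of Sema3d were 4.99 to 7.76 on the deposited scale, against 5.88 to 6.69 in SubQ tissue, and the line of origin was not called (F test, adjusted p = 0.58). Sema3c kept its order of lines in both settings, with line 31 at 8.83 in culture and 8.62 to 9.30 in tumors, line 123 at 7.31 and 7.31 to 8.10, and line 59 at 5.72 and 5.92 to 6.86.

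**Figure D5:**
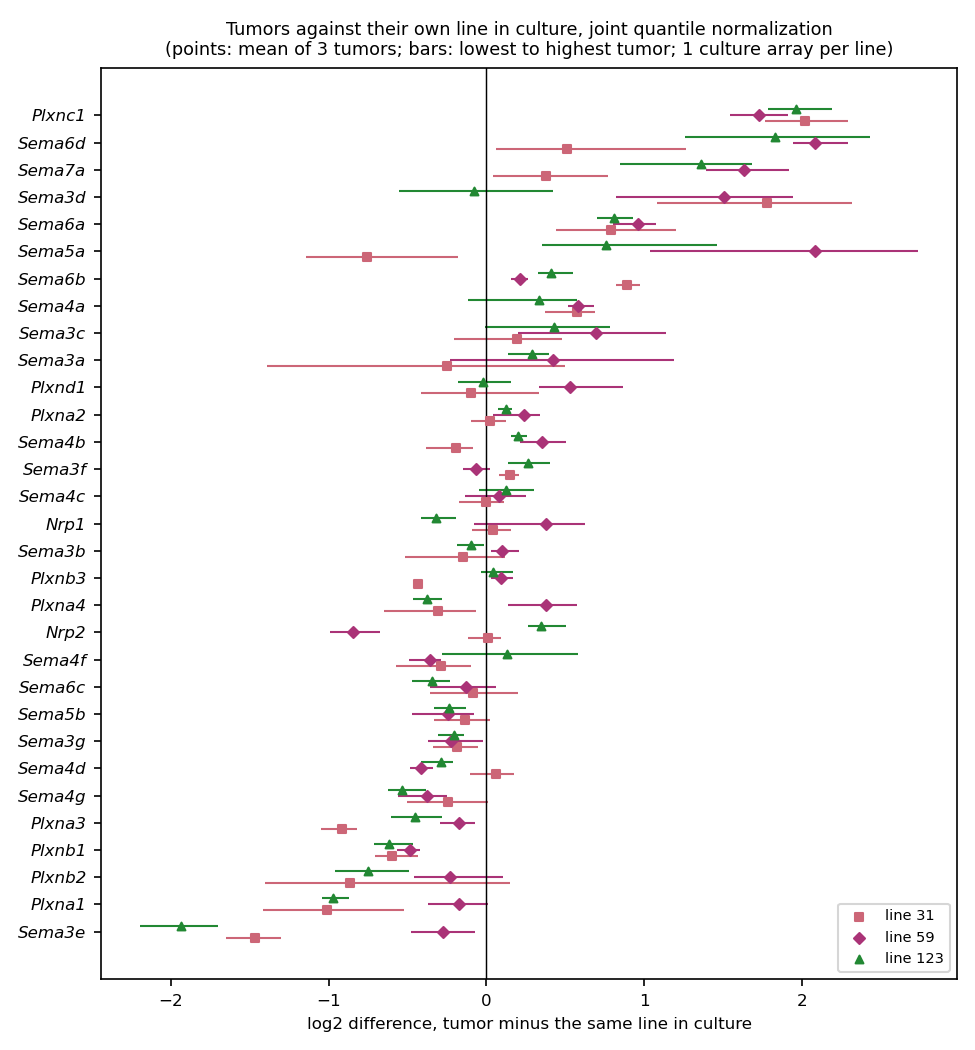
Log2 difference of tumors minus the same line in culture, on the x axis, for the 31 genes after joint quantile normalization, with a point at the mean of 3 tumors of line 31, 59 or 123 and a bar from the lowest to the highest tumor. Plxnc1 stands near 2 for all 3 lines, and Sema3e runs from -0.28 to -1.94.

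A further 3 lists of other genes of the pathway were drawn up: 20 further receptors and co-receptors, 6 VEGF family ligands of neuropilins and 36 intracellular effectors. Between lines and normal NSCs, 3 of the 20 measured co-receptors were called higher and 3 lower, with 6.79% and 8.22% of all genes so called. Met, the hepatocyte growth factor receptor that pairs with B-type plexins, was 4.91 ± 0.30 higher (SE; adjusted p = 9.7e-08). The adhesion molecules Chl1 and Nrcam, which pair with neuropilins in axons, were lower (-4.80 ± 0.13 and -2.65 ± 0.15, SE), as was the heparan sulfate proteoglycan Sdc3 (-1.29 ± 0.21, SE). The median difference of the list was 0.02, against -0.01 over all genes.

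Of 34 effectors measured, 7 had a call for a higher and 5 for a lower level in the lines (median -0.04), beside the same 6.79% and 8.22% of all genes. Rras2, a Ras-family GTPase, rose by 2.08 ± 0.31 (SE; adjusted p = 0.00046), and Rnd1, a small GTPase that binds plexins, by 1.28 ± 0.23 (SE; adjusted p = 0.0019). Crmp1, of the collapsin response mediator family that relays Sema3a signals in neurons, was lower (-2.31 ± 0.15, SE; adjusted p = 2e-07), as was the kinase Fyn (-1.77 ± 0.19, SE; adjusted p = 2.7e-05). Dpysl2, Dpysl4 and Dpysl5 of the Crmp1 family were the other 3 effectors called lower. Of 5 VEGF ligands measured, Vegfb was lower (-0.36 ± 0.11, SE; adjusted p = 0.036). No gene of the 3 lists was called between p53 labels.

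In tumors against SubQ tissue, with its background of 76.5%, 22 effectors were higher and 3 lower (median 0.81, against -0.28 over all genes), led by Rnd3 (2.90 ± 0.34), Rap1b (2.73 ± 0.28), Rras2 (2.61 ± 0.25) and Ranbp9 (2.23 ± 0.25, all SE). Of the co-receptors 8 were higher and 4 lower (median 0.04), led by Met (5.12 ± 0.89), Itgb1 (4.15 ± 0.20), Tyrobp (2.87 ± 0.26) and Cd72 (1.93 ± 0.43, all SE). Tyrobp and Cd72 are genes of immune cells, and the macrophage markers were higher in the same tumors. Vegfc and Vegfa were higher (1.31 ± 0.39 and 0.96 ± 0.27, SE) and Pgf lower (-1.03 ± 0.20, SE).

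Between tumor lines the F test called 1 of 20 co-receptors, 1 of 5 VEGF ligands and 1 of 34 effectors, where it called 5.07% of all genes. Cd72 was lower in line 1 (-1.23 ± 0.20, SE; adjusted p = 0.0055) and higher in line 31 (1.39 ± 0.20, SE; adjusted p = 0.0076). Vegfc, a ligand of Nrp2, was lower in line 1 (-1.26 ± 0.25, SE; adjusted p = 0.015), the line with the most Nrp1, and Rnd1 was higher there (0.67 ± 0.17, SE; adjusted p = 0.041).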

How the data were processed

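The values used were the log2 expression levels per probe set that the authors deposited, made with RMA, per the submitters' processing notes, which list the software GCOS and Affymetrix Expression Console. Per the labels' protocols, total RNA was taken with Trizol and 100 ng labelled per array. No source used here names a genome build for the probe sets. Of 34760 probe sets, 21640 listed with 1 gene were used, and 1321 listed with several genes and 11799 listed with none were left out. Of several probe sets of a gene (954 genes), that of highest mean level in the 27 samples stood for it, which gave 19937 genes. All 31 members were tested, with no filter on level.

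Groups came from the labels. Each comparison was fitted over all genes with limma 3.58.1 (lmFit, eBayes) in R 4.3.3, with 2-sided p-values adjusted by Benjamini and Hochberg and a call at an adjusted p under 0.05. The 4 tumor lines were compared by a moderated F test, then each with the mean of the other 3. The fits were tested on simulated data. Marker and pathway lists are described by counts and medians. The number of arrays limits the precision, and RMA values carry no detection call. Members and lists were chosen with earlier results of these data known. Named genes were those called in the cell comparisons, the 10 with the smallest F test p, the 8 with the largest difference between tumors and SubQ tissue, and up to 4 called genes of each pathway list and comparison. Sema3a, Sema3c, Sema3e and Plxnd1 in the cell arrays, the second Sema4d probe set, and the genes named for tumors against cultures were added after their values were seen.

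Also run were averages of a gene's probe sets, genes above the median level alone, trend and robust variance, median centring, quantile normalization, a 2-fold threshold, all 27 arrays in 1 fit, the replicate number as a block, lines of 1 p53 label, tumor line as a random block or averaged, and each array left out in turn. Tables used pandas 2.3.3 and numpy 2.4.6 under Python 3.11.15, and figures matplotlib 3.10.9.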

Additional observations from a re-analysis of the deposited data

Results flagged for a closer look

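In 62 sets of a gene and a group of 4 or 6 lines, there were 6 cases of a line apart from its group. Dixon's criterion was used, where chance gives about 1 in 20. Line 116 was apart 3 times within the p53 mutant lines: Plxna4 was at 7.70 (next highest 6.98), Sema3f at 8.51 (8.11) and Sema5b, as the lowest, at 6.81 (7.04). Within the WT lines, Sema3b was at 7.32 in line 123 (next highest 6.97), Sema4b at 6.96 in line 331, as the lowest (7.31), and Sema6a at 7.49 in line 119 (6.37).

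In 9 cases of a gene and a pair among lines 31, 59 and 123, the lines moved in opposite directions after joint quantile normalization. All 3 tumors of one line then moved one way from their own culture and all 3 tumors of the other moved the opposite way. These differences were not tested. Sema5a was 2.09 higher in line 59 tumors and 0.76 higher in line 123 tumors, and -0.76 in line 31 tumors. Plxna4 was 0.38 higher for line 59, and -0.31 and -0.38 for lines 31 and 123. Nrp2 was 0.35 higher for line 123 and -0.85 for line 59. Sema4b was 0.35 higher for line 59 and 0.20 higher for line 123, and -0.19 for line 31. The others were small: Plxnb3 was 0.0894 higher for line 59 and -0.44 for line 31, and Sema3b was 0.0981 higher for line 59 and -0.09 for line 123.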

How the results depend on the processing

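Of the values of single genes under all alternatives, 4807 kept direction and side of the threshold, 141 lost and 46 gained a call, and 1 reversed. The counts of called members changed as follows beyond 1.5 times, and the cause was not tested except where fewer genes or samples entered. With a 2-fold threshold they were 5 for lines against normal NSCs, 7 for tumors against SubQ tissue, 2 for the F test and 1 for line 31. With genes above the median level alone they were 13 for tumors against SubQ tissue and 0 for the p53 labels, where Sema3d was not tested. The count for the p53 labels was 0 with trend and robust variance and 0 with median centring. With all 27 arrays in 1 fit, line 31 had 1 (Plxna1 gained, and Plxna2, Plxna3 and Sema3c lost) and line 59 had 0 (Sema3c lost). Sema3c also lost its F test call there. Quantile normalization gave 1 for line 123 (Plxna3). For tumors against cultures, 26 members had all tumors lower on the deposited values, against 4. The shares of all genes called under these settings, and with 1 array left out, are not given beside the counts. Whether members changed more than other genes cannot be read from them.

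Leaving out 1 array gave 3 to 10 members for lines against normal NSCs, 15 to 22 for tumors against SubQ tissue, 0 to 1 for the p53 labels, 2 to 7 for the F test, 1 to 5 for line 1, 1 to 5 for line 31, 1 for line 59 and 0 for line 123. Pairing by the replicate numbers of the titles was looked at among tumor and SubQ arrays only. Of 30 pairs with the same number 3 had correlated deviations over 0.1, and of 60 pairs with different numbers 14. The deviations were taken from means of 3 arrays, which ties the 2 counts together, so they cannot decide whether the numbers pair samples. With the replicate number as a block, 11 members were called between lines and normal NSCs, 20 between tumors and SubQ tissue and 3 for line 31. Against normal NSCs, Nrp1, Sema3f and Sema4g lost their calls and Plxna2, Plxna4, Sema3c, Sema3d and Sema5a gained one. Against SubQ tissue Plxnb1 and Sema3f were lost, and for line 31 Plxna3 was lost and Plxna1 gained. Sema3d reversed between lines and normal NSCs, to -0.56 from 0.92, and was called, with an adjusted p that rounds to 0.05. Only 2 lines share a number with a normal culture, so that fit rests on these. Differences among low genes, such as Sema3d in mutant lines and Plxnc1 in all lines, are limited by signal near the floor.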
